A study of Mus musculus with 10 samples.

Results

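Gene expression in mouse CD8 T cells held in low glucose for 5 days was set against that of cells held in low glucose for 1 day, both without acetate. The comparison takes the count libraries whose titles name d9 or d5, 1 mM glucose and no acetate, which are 5 of the 10 libraries of the series: d9 replicates 1 to 3 against d5 replicates 1 and 2. The cells carry the OT-I transgenic T cell receptor, which recognises an ovalbumin peptide, on the C57BL/6 strain, and came from spleens and peripheral lymph nodes. All groups were activated with the peptide (100 ng/ml) and recombinant human interleukin-2 (100 U/ml) in 25 mM glucose for 3 days, then moved to 1 mM glucose for 24 h (d5) or 120 h (d9). All groups were restimulated with PMA and ionomycin, a drug pair that bypasses the receptor, for 4 h before RNA was taken. The d9 cells were also older in culture and had received interleukin-2 for longer, so that time in low glucose and time in culture cannot be told apart. The 3 days of activation plus 1 or 5 days of restriction do not add up to the labelled days 5 and 9, a gap on which the labels are silent. All cells bear 1 transgenic receptor, and no library of cells kept in high glucose was used here. The other 5 libraries of the series, which received 5 mM acetate for the last day (2 at d5 and 3 at d9), entered the fit for the estimate of spread and serve as a second set of libraries over the same interval.

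Activated CD8 T cells take up glucose at a high rate and use it for energy, for biosynthesis and for the acetyl groups of lipids and histones. They divide, secrete cytokines such as interferon-gamma and fill granules with perforin and granzymes, the pore-forming protein and the proteases with which they kill target cells. With time after activation such cells leave the cell cycle and move towards effector, memory or exhausted states, each known by sets of receptors and transcription factors.

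The libraries held 17047990 and 16588023 counts on d5 and 23047362, 23930347 and 23667645 on d9. The first principal component of the 10 libraries accounted for 66.2% of the variance and set the d5 libraries apart from the d9 libraries. Sampling noise alone did not cover the differences between replicates (chi-square per degree of freedom 5.78 to 66), and d9 replicate 1 stood apart from the other d9 libraries, with 15.6% of its counts on ribosomal protein genes against 12 and 12.8%. Reads of ribosomal RNA type were more frequent on d5: Gm42418, a locus that overlaps ribosomal RNA sequence, took 1.86 and 3.83% of counts on d5 and 0.281 to 0.304% on d9. All 12 CD8 T cell markers passed the filter on low counts, with Cd3d at 394 ± 36.8 and 599 ± 94.9 CPM on d5 and d9 (mean ± SD of 2 and of 3 libraries of CPM, the usual per-library count rate, scaled by TMM) and Cd8a at 333 ± 38.8 and 589 ± 70.9 CPM. Of these markers 6 rose and 1 fell by the test described below. In the CD8 marker list the count that rose was 1 without d5 replicate 2 and 3 without d5 replicate 1, and the count that fell was 0 without d5 replicate 1, d5 replicate 2 or d9 replicate 2. Cd3d was not called without d5 replicate 1, d5 replicate 2 or d9 replicate 1 (edgeR adjusted p = 0.0557 to 0.186).

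Markers of other lineages differed by list. Of 12 B cell genes 3 passed the filter on low counts, and 2 of these, Ighm and Ighd, fell. Ighm, the immunoglobulin M heavy chain gene, stood at 171 and 139.7 CPM on d5 and 77.3, 87.6 and 100.5 CPM on d9, and the B cell gene Blnk held at most 1 count. Of 12 monocyte and macrophage genes 2 passed and none was called, with a summed level of 7.96 to 12.3 CPM in the 5 libraries. Of 9 granulocyte and mast cell genes 2 passed, and Ly6g, at 0 in both d5 libraries and at 0.522 to 1.25 CPM on d9, was called higher. The other, Mcpt8, lay higher in every d9 library (log2 1.22) and was not called. With the replicate block both were called higher. S100a8, Mpo, Clec9a and Hbb-bs were at 0 in all 5 libraries. Of 11 erythroid and stromal genes only Pecam1 passed, and it rose from 16.3 ± 3.59 to 33.9 ± 4.21 CPM. Of 11 dendritic cell genes 6 passed and 2 rose, Zbtb46 from 19.9 ± 5.02 to 65.9 ± 2.25 CPM and H2-Ab1 from 3.64 ± 2.18 to 23.3 ± 6.69 CPM, with Flt3, Xcr1, Clec9a and Siglech at 5 counts or fewer. In 3 of the 6 the log2 change was below 0, down to -1.16, and none was called lower. With library size scaling, and with the replicate block, 1 was called lower. The summed dendritic cell level was 60.9 and 82.5 CPM on d5 and 114, 133 and 123 CPM on d9. Of 6 CD4 T cell genes 5 passed, of which 1 rose and 2 fell. Cd4 rose from 0.282 ± 0.0688 to 1.31 ± 0.339 CPM, Cd40lg was among the 2 that fell, and Foxp3 held no more than 1 count. Of 8 natural killer cell markers 4 passed and 3 rose, namely Gzma, Eomes and Klrb1c, which activated CD8 T cells can also express. Their list summed to 187 and 63.9 CPM on d5 and 2954, 1867 and 2211 CPM on d9, most of it Gzma. The other tested marker, Tyrobp, a signalling adaptor of natural killer and myeloid cells, stood at 1.32 and 0.643 CPM on d5 and 0.761, 0.381 and 0.522 CPM on d9 and was not called. Klra4 and Klra9 were at 0, Klra8 held at most 1 count and Ncr1 at most 5. What part these transcripts of other lineages have in any result was not tested. In bulk RNA of this kind, fewer cells of a type and less RNA per cell cannot be told apart. Whether replicates came from separate animals or cultures is not in the labels, and the p-values therefore reflect only the spread of these samples, which may be technical. Ighm and Pecam1 were not called without d5 replicate 1, nor Ighd without d5 replicate 1 or d9 replicate 3 (edgeR adjusted p = 0.0501 to 0.17).

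Of 13182 genes tested, 2096 (15.9%) rose and 2799 (21.2%) fell from d5 to d9, together 37.1% of the genes, by the edgeR quasi-likelihood test at a Benjamini-Hochberg adjusted p of 0.05. Counts of list members without acetate are to be read against these shares of 15.9% and 21.2%. The change exceeded 2-fold in 843 of the genes that rose and 1568 of those that fell, and 4-fold in 307 and 505. In 4893 of the 4895, among them every gene given below as risen or fallen, the d9 libraries lay wholly above or below the d5 libraries. With 3 against 2 libraries such separation is frequent and adds little to a call. For example, 61 of 83 tested ribosomal protein genes lay wholly higher on d9, of which 8 were called. The share over all tested genes was not counted. Levels are given in CPM, per library or as the mean ± SD (n = 2 on d5, n = 3 on d9), and log2 changes are given with the SE of the fit. The median log2 change of all tested genes was -0.0106. Scaling by library size alone in place of TMM moved that median to -0.113 and the share of higher genes among those called from 42.8 to 32.3%, so small changes depend on the scaling. Leaving out d5 replicate 1 or 2 left 2950 and 2829 calls, where the single d5 library left is taken to vary as the other groups do. Without d9 replicate 1 there were 4770 calls, and without it and acetate d9 replicate 2, the 2 d9 libraries rich in ribosomal protein counts, 6084. The fifth of genes with the longest transcripts held 314 that rose and 786 that fell of 2632 (median log2 -0.173), and with the length and GC trends removed 3468 of the calls were kept.

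**Figure D1:**
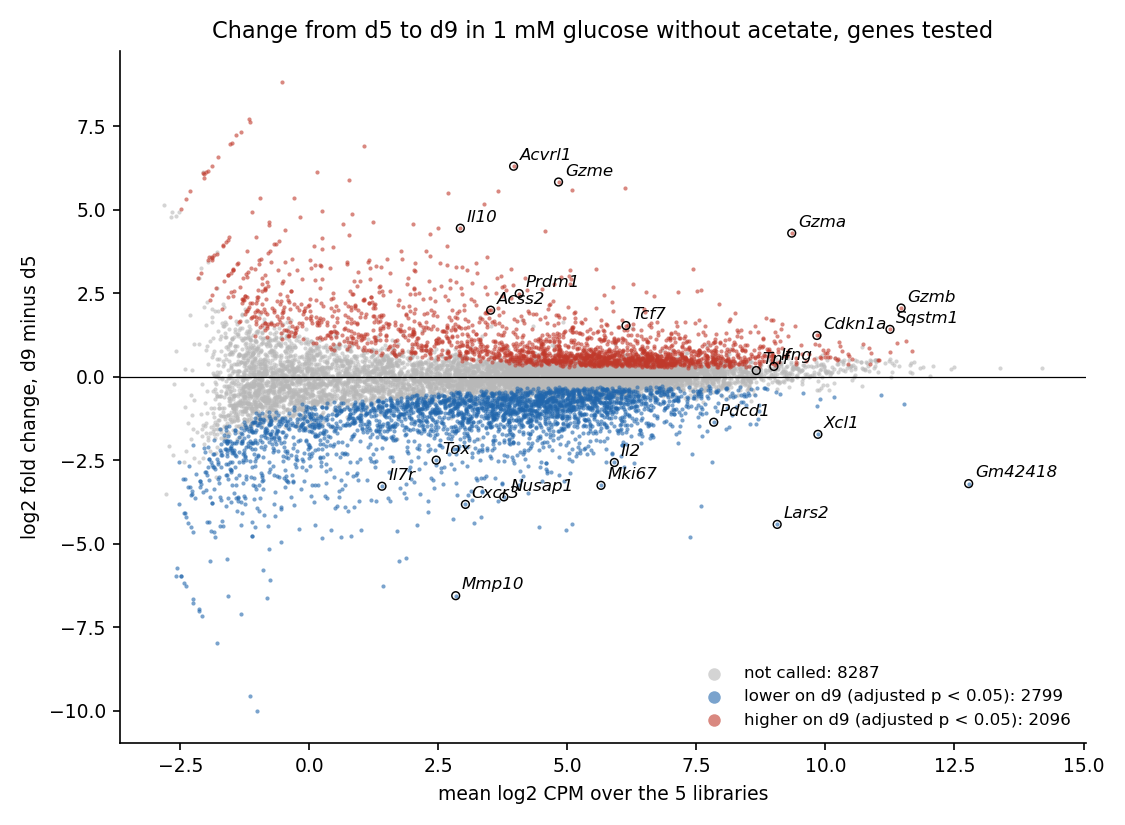
Log2 fold change from d5 to d9 (vertical) against the mean log2 CPM over the 5 libraries (horizontal), 1 point per gene tested, red where higher and blue where lower on d9 at an adjusted p of 0.05. Of the genes labelled by name, Gzma and Gzmb lie high at both level and change, Mki67 and Nusap1 lie low, and Ifng and Tnf lie near the zero line.

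Genes of cell division fell. All 44 tested genes of the list for mitosis and the G2/M phase fell, by a median of 2.30 on the log2 scale, against 21.2% of all genes, and all 44 fell more than 2-fold. Mki67, which encodes the proliferation marker Ki-67, stood at 163 and 235 CPM on d5 and 15.2, 19.9 and 27.4 CPM on d9. Every d9 library was below every d5 library, with a log2 change of -3.25 ± 0.28 (SE; edgeR adjusted p = 2.14e-05). Nusap1, whose protein binds spindle microtubules, stood at 56.99 and 63.9 CPM on d5 and 5.15, 4.45 and 5.35 CPM on d9 (log2 -3.60 ± 0.16). The kinetochore genes Cenpf, Ndc80, Nuf2 and Cenpe, whose proteins tie chromosomes to the spindle, fell by 13.2-, 8.56-, 10.98- and 10.6-fold, and Hmmr, a spindle gene, by 8.47-fold. Bub1, the spindle checkpoint kinase gene, went from 37.1 ± 2.14 to 3.43 ± 1.23 CPM. The count of genes that fell was 43 or 44 with any 1 of the 5 libraries left out.

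The promoters of this list are shown because its members fell together and because many cell-cycle promoters carry 2 known elements: the cell cycle genes homology region (CHR), searched for here as TTTGAA or TTCGAA, and the CCAAT box, both on either strand. Of the 36 list members with a RefSeq promoter (the 250 bases before the start, GRCm38.p6), 27 (75%) held CCAAT, against 36.7% of the promoters of 9483 tested genes and 34.3% of all 27025 in the table. A CHR was found in 12 (33.3%), against 12.1% and 17.4%, and in 6 of 18 interferon-stimulated genes, the same share. CCAAT was held by 21 of 35 promoters of the S-phase list (60%). It was held by 11 of 16 promoters of the MHC class I list (68.8%), a list in which most genes rose, and by 5 of 18 of the interferon-stimulated list (27.8%) and 2 of 21 of the granule list (9.52%). A match is a run of letters and not a shown site. The windows of Mki67 at chr7:135716380-135716629 on the reverse strand, Top2a at chr11:99024190-99024439 on the reverse strand and Ccnb2 at chr9:70421555-70421804 on the reverse strand are printed 5′ to 3′ on the gene's strand and end at the base before the RefSeq start, with both elements in capitals. Top2a encodes the topoisomerase that untangles replicated DNA and Ccnb2 encodes a mitotic cyclin. These 2 were chosen after their values were seen. Each printed window holds both elements, which is not typical of the list, as 12 of 36 promoters held a CHR. Of the genes named above, Nusap1, Ndc80 and Nuf2 had no match to either element. Cenpf, Cenpe, Hmmr and Bub1 held CCAAT but no CHR.
Mki67 promoter: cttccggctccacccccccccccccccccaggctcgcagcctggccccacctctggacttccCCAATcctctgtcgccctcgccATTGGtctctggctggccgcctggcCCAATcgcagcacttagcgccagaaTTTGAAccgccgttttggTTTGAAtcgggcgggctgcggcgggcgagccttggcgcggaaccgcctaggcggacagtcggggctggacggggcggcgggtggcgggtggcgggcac
Top2a promoter: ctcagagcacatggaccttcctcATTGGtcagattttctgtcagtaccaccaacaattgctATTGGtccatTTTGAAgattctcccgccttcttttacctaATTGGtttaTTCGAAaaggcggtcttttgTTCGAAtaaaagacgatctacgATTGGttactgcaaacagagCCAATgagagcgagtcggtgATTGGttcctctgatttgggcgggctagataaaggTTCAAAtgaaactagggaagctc
Ccnb2 promoter: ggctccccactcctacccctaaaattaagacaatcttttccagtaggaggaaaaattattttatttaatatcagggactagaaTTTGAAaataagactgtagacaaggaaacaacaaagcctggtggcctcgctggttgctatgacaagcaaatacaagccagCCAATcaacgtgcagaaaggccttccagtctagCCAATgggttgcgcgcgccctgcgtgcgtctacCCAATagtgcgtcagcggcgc
Top2a stood at 614 and 710.0 CPM on d5 and 73.7, 118 and 148 CPM on d9 and Ccnb2 at 87.8 and 107 CPM on d5 and 15.1, 15.6 and 20.2 CPM on d9. In both genes, as in Mki67, the groups did not overlap.

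Of 44 tested genes of DNA replication and S phase, 38 fell, none rose and 6 were not called (median log2 -1.24). Ccne2, the cyclin that drives entry into S phase, stood at 11.2 and 14.1 CPM on d5 and 1.12, 1.27 and 0.653 CPM on d9, a 12.4-fold fall. The helicase gene Hells went from 24.1 ± 0.4698 to 4.52 ± 0.918 CPM, E2f2, a transcription factor of S-phase genes, from 44.2 ± 2.91 to 8.63 ± 2.76 CPM, and Prim1, the primase subunit that starts DNA strands, from 29.04 ± 0.511 to 8.604 ± 1.13 CPM. Rrm1, the large subunit of ribonucleotide reductase, which makes DNA precursors, fell from 283 ± 27.1 to 85.8 ± 17.9 CPM, and Slbp, which binds histone mRNAs, from 65.5 ± 5.22 to 30.1 ± 1.85 CPM.

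Brakes of the cell cycle changed in both directions: of 16 tested inhibitors, cyclins D and their partners, 5 rose and 5 fell. Cdkn2b and Cdkn2a, neighbouring genes of inhibitors of the cyclin D kinases, rose 7.95- and 5.39-fold, from 8.66 ± 4.06 to 68.99 ± 3.34 CPM and from 18.98 ± 2.804 to 102 ± 9.12 CPM. Cdkn1a, which encodes the inhibitor p21, stood at 508 and 589 CPM on d5 and 1367, 1347 and 1151 CPM on d9, a 2.35-fold rise (edgeR adjusted p = 9.85e-05). Cdkn2c, another inhibitor of the same family, went the other way, from 53.1 ± 12.4 to 13.7 ± 2.06 CPM, as did Rbl1, a relative of the retinoblastoma gene, from 54.6 ± 1.33 to 14.2 ± 2.201 CPM, and the S-phase kinase gene Cdk2, from 49.2 ± 1.83 to 15.01 ± 1.66 CPM.

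**Figure D2:**
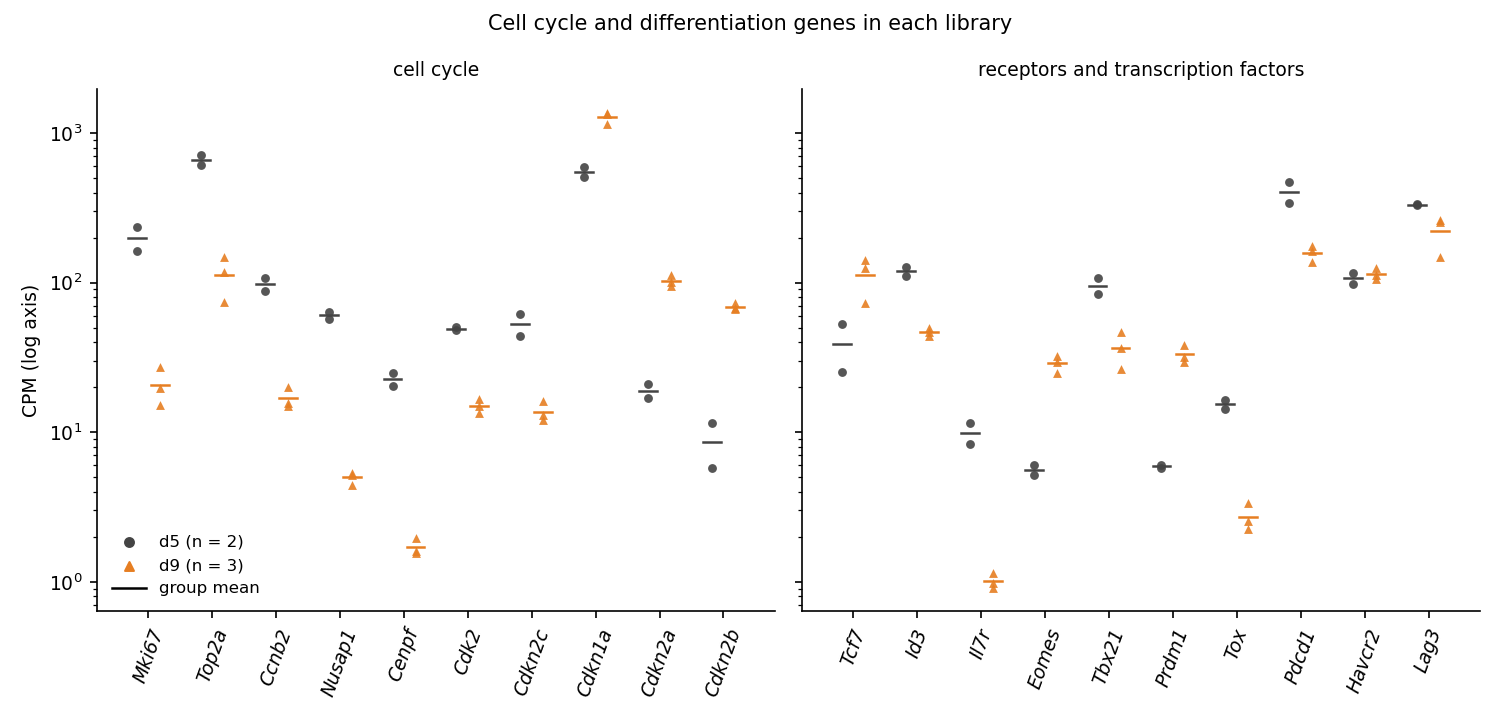
CPM on a log axis of 10 cell-cycle genes (left) and 10 receptor and transcription factor genes (right) in each d5 library (grey circles) and d9 library (orange triangles), with group means as bars. Mki67, Top2a, Ccnb2, Nusap1 and Cenpf lie lower on d9 and Cdkn1a, Cdkn2a and Cdkn2b higher, while Havcr2 overlaps between the groups.

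Genes of the cytotoxic granule were mostly higher. Of 23 tested, 15 rose, 1 fell and 7 were not called (median log2 0.94), against 15.9% of all genes higher. Gzmb, which encodes granzyme B, the main caspase-activating granzyme, stood at 1314 and 1115 CPM on d5 and 6193, 4498 and 4434 CPM on d9. The 3 d9 libraries were all above the d5 pair, a 4.15-fold rise (log2 2.05 ± 0.20, SE; edgeR adjusted p = 3.63e-05). Gzma, which encodes the tryptase granzyme A, stood at 178 and 56.8 CPM on d5 and 2915, 1824 and 2172 CPM on d9. It rose 19.6-fold (log2 4.30 ± 0.53; edgeR adjusted p = 0.00022), with no overlap between the groups although the d5 libraries differed widely. Gzma is also one of the natural killer cell markers given above.

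Large changes were also found in 4 granzyme genes that mice carry beside Gzmb on chromosome 14 (GRCm38, 56117626 to 56262260, reverse strand), namely Gzme, Gzmd, Gzmg and Gzmf. Gzme stood at 3.59 and 1.75 CPM on d5 and 248, 102 and 107 CPM on d9, Gzmd at 11.1 and 3.45 CPM on d5 and 575, 249 and 276 CPM on d9 and Gzmg at 6.01 and 1.64 CPM on d5 and 323, 108 and 127 CPM on d9. Gzmf stood at 1.71 and 0.818 CPM on d5 and 79.8, 41.9 and 57.96 CPM on d9, and its exons overlap Gm4022 on the opposite strand. The log2 changes of Gzme, Gzmd, Gzmg and Gzmf were 5.83 ± 0.50, 5.64 ± 0.57, 5.59 ± 0.70 and 5.55 ± 0.36, and in each gene d9 replicate 1 was the highest library. Without that library the granule list had 16 that rose, with a median of 0.57, and the 1 that fell was not called. With the length and GC trends removed the median was 0.59. Gzmc, named after its values were seen, lies between Gzmf and Gzmb and went from 229 ± 81.4 to 766 ± 153 CPM (log2 1.74). These genes are close relatives: 19.4 to 21.9% of the 50-base stretches of the Gzmd, Gzme, Gzmf and Gzmg transcripts also occur in another gene, so the value of each one alone is uncertain. The use of strand and of reads with several matches in the authors' counting was not stated in the labels, so genes named as overlapping another cannot be told apart from it. No such stretch of Gzma or Gzmb is shared. Gzmk, a granzyme of early effector and memory cells, stood at 0.1103 and 0 CPM on d5 and 5.02, 4.28 and 3.87 CPM on d9.

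Prf1, the perforin gene, stood at 311 and 168 CPM on d5 and 519, 443 and 417 CPM on d9 (log2 0.94 ± 0.23; edgeR adjusted p = 0.00922). Its rise was not called with the length and GC trends removed. Prf1 was not called without d5 replicate 2 (edgeR adjusted p = 0.0748).

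**Figure D3:**
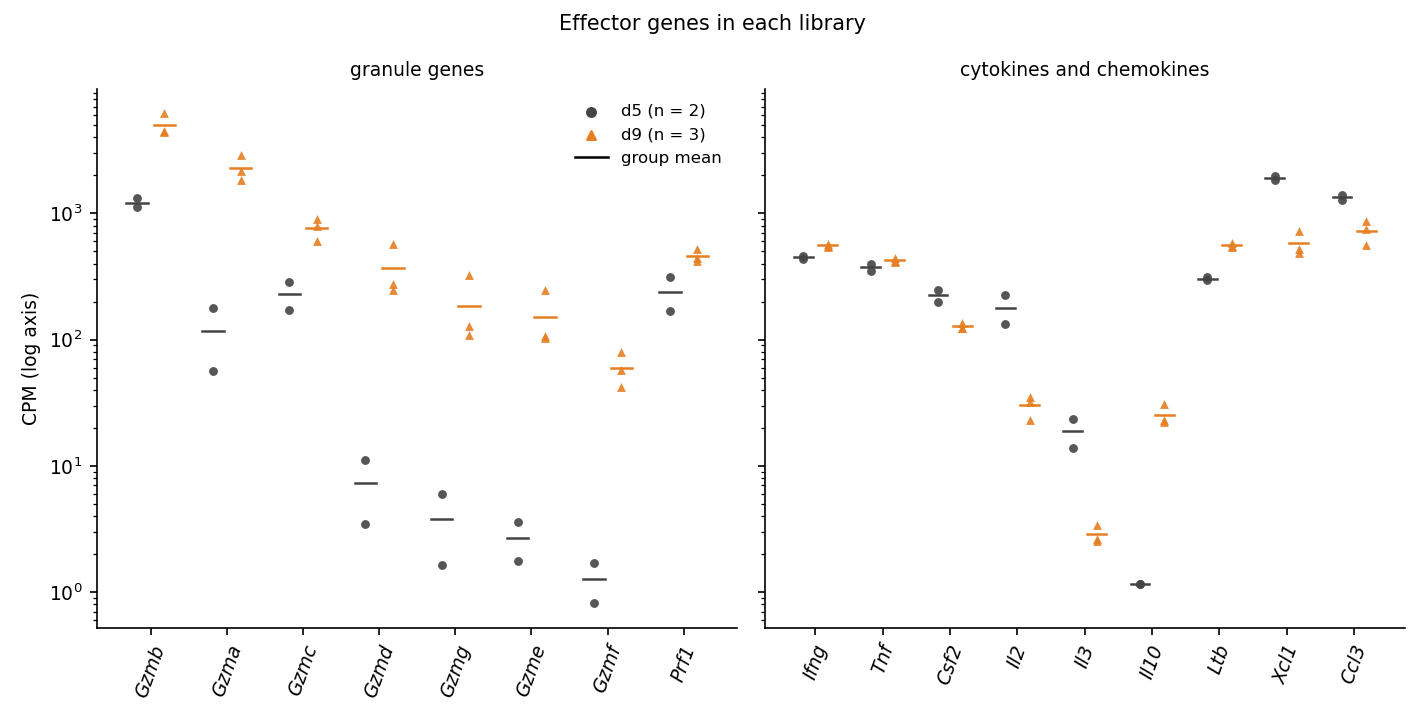
CPM on a log axis of 8 granule genes (left) and 9 cytokine and chemokine genes (right) in each d5 library (grey circles) and d9 library (orange triangles), with group means as bars. The granzyme genes Gzmd, Gzmg, Gzme and Gzmf lie at or under 11.1 CPM on d5 and at or above 41.9 CPM on d9, Il2, Il3 and Xcl1 lie lower on d9, and Il10 higher.

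Secreted cytokines moved in both directions: 7 of 17 tested rose (41.2%) and 4 fell (23.5%). Il10, which encodes the anti-inflammatory interleukin-10, stood at 1.16 and 1.17 CPM on d5 and 31.1, 23.1 and 22.1 CPM on d9, a 21.8-fold rise (log2 4.44 ± 0.27; edgeR adjusted p = 2.91e-06). Il2, which encodes the growth factor interleukin-2, stood at 133 and 225 CPM on d5 and 35.4, 23.1 and 31.9 CPM on d9, a 5.94-fold fall (log2 -2.57 ± 0.25; edgeR adjusted p = 4.35e-05). Il3 and Csf2, which encode growth factors of myeloid cells and lie near each other on chromosome 11, fell from 18.7 ± 6.74 to 2.88 ± 0.479 CPM and from 225 ± 34.5 to 127 ± 6.79 CPM. Csf2 shares exon positions with Gm12223, which runs on the other strand, and its fall was not called with the length and GC trends removed. Ltb, the lymphotoxin-beta gene, rose from 304 ± 11.1 to 559.7 ± 22.7 CPM. In the cytokine list the count that rose was 4 without d5 replicate 1 or d9 replicate 2.

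Ifng and Tnf, cytokine genes of the type 1 response, were not called. Ifng, the interferon-gamma gene, stood at 463 and 439 CPM on d5 and 544, 553 and 577 CPM on d9 (log2 0.31 ± 0.14; edgeR adjusted p = 0.117), and its exons overlap Gm49751 on the same strand. Tnf stood at 351 and 399 CPM on d5 and 414, 421 and 442 CPM on d9 (log2 0.18 ± 0.15; edgeR adjusted p = 0.356). In both genes the 3 d9 libraries lay above the 2 d5 libraries, and neither difference passed the threshold. Ifng was called higher without the 2 d9 libraries rich in ribosomal protein counts and with the length and GC trends removed (log2 0.20 to 0.70 and edgeR adjusted p = 0.00256 to 0.372 over the 18 alternatives).

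Of 9 chemokine genes tested, none rose and 3 fell. Xcl1, whose product attracts cross-presenting dendritic cells, stood at 1984 and 1846 CPM on d5 and 524, 489 and 722 CPM on d9, a 3.31-fold fall. Ccl3, an inflammatory chemokine gene, fell from 1339 ± 88.6 to 727 ± 156 CPM, a change not called with the length and GC trends removed. Among 10 TNF-family ligands 6 fell and 2 rose. Cd40lg, which licenses antigen-presenting cells, fell from 10.5 ± 1.15 to 2.54 ± 1.28 CPM, Tnfsf10, the death ligand TRAIL, from 37.8 ± 11.9 to 9.595 ± 1.02 CPM, Tnfsf8, the CD30 ligand, from 471 ± 67.2 to 214 ± 18.5 CPM and Cd70 from 45.6 ± 1.802 to 23.01 ± 2.92 CPM. Fasl, the ligand with which T cells trigger death receptors, rose from 16.8 ± 5.098 to 39.03 ± 6.82 CPM. In the chemokine list the count that rose was 1 without d9 replicate 1. In the TNF ligand list the count that rose was 1 without any 1 of the 5 libraries.

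Among 13 chemokine and homing receptors 5 rose (38.5%) and 3 fell (23.1%). Cxcr3, the receptor for interferon-induced chemokines at inflamed sites, stood at 38.3 and 40.7 CPM on d5 and 2.33, 2.54 and 3.48 CPM on d9, a 14.2-fold fall (edgeR adjusted p = 2.88e-06). Cxcr6, a receptor of tissue-resident cells, rose from 163 ± 15.8 to 301 ± 28.9 CPM, and Selplg, a ligand of selectins, from 150.4 ± 3.68 to 309.7 ± 20.5 CPM. Of 17 integrin and adhesion genes 6 rose (35.3%) and 2 fell (11.8%). Cdh1, which encodes the epithelial adhesion protein E-cadherin, stood at 0.772 and 0.467 CPM on d5 and 30.5, 26.7 and 28.3 CPM on d9, a 45.3-fold rise. Itga1, the collagen-binding integrin alpha1, rose from 0.308 ± 0.188 to 7.83 ± 0.637 CPM, Itgb3 from 15.7 ± 2.44 to 60.7 ± 9.61 CPM and Icam1 from 210.0 ± 6.24 to 605 ± 59.5 CPM, while Itga6, a laminin receptor subunit, fell from 11.9 ± 1.04 to 7.29 ± 0.439 CPM. In the homing receptor list the count that rose was 3 without d5 replicate 2. In the adhesion list the count that fell was 1 without d5 replicate 2, d9 replicate 1 or d9 replicate 3.

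Cytokine receptor genes split: 12 of 21 tested rose (57.1%) and 6 fell (28.6%). Il7r, the receptor for the survival cytokine interleukin-7, stood at 8.38 and 11.4 CPM on d5 and 0.985, 1.14 and 0.914 CPM on d9, a 9.71-fold fall. Il18r1, a receptor for interleukin-18, fell from 85.3 ± 19.3 to 27.8 ± 1.604 CPM. Il10ra, the ligand-binding chain for interleukin-10, rose from 4.95 ± 0.601 to 32.8 ± 4.88 CPM, in the same libraries in which Il10 rose. Il12rb1, a receptor chain for interleukins 12 and 23, rose from 142 ± 54.5 to 467 ± 60.4 CPM, Tgfbr2, the type II receptor for TGF-beta, from 109 ± 5.32 to 309 ± 40.4 CPM and Il21r from 203 ± 2.73 to 459 ± 68.6 CPM.

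Of 17 inhibitory receptors 6 rose and 6 fell, so that the list had no common direction. Pdcd1, which encodes PD-1, stood at 473 and 339.5 CPM on d5 and 162, 137 and 175 CPM on d9, a 2.57-fold fall (edgeR adjusted p = 0.000531). Btla fell from 14.2 ± 1.09 to 1.68 ± 0.674 CPM, Tigit from 93.3 ± 4.01 to 43.2 ± 6.78 CPM, Cd101 from 20.8 ± 5.98 to 10.4 ± 1.26 CPM and Cd5 from 238 ± 22.2 to 126 ± 8.65 CPM, all of them genes whose products dampen T cell signalling. Entpd1, which encodes CD39, the enzyme that removes extracellular ATP, rose from 2.16 ± 0.00694 to 19.7 ± 1.93 CPM. Havcr2, which encodes TIM-3, stood at 117 and 97.7 CPM on d5 and 124, 106 and 113 CPM on d9 with overlapping groups (edgeR adjusted p = 0.696). Lag3 stood at 335 and 329.5 CPM on d5 and 149, 255 and 262 CPM on d9 and was not called (edgeR adjusted p = 0.0784). It was called lower with the replicate block, with library size scaling and with the length and GC trends removed (edgeR adjusted p = 0.00274 to 0.229 over the 18 alternatives). In the inhibitory receptor list the count that rose was 3 without d5 replicate 1 or d5 replicate 2.

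Costimulatory receptors fell in 6 and rose in 4 of 12 tested genes. Slamf1 fell from 56.9 ± 5.08 to 8.97 ± 1.35 CPM, Cd27 from 124 ± 11.7 to 39.96 ± 2.72 CPM, Tnfrsf4, which encodes OX40, from 526 ± 122 to 176 ± 17.9 CPM and Icos from 95.97 ± 0.493 to 45.7 ± 3.21 CPM. Tnfrsf18, which encodes GITR, rose from 190.5 ± 28.3 to 439.8 ± 49.8 CPM and Tnfrsf1b, the second TNF receptor, from 64.1 ± 2.34 to 169.6 ± 21.4 CPM. Of 11 receptors of the natural killer type 5 fell and 4 rose. Klrc1, which encodes the inhibitory receptor NKG2A, fell from 100.2 ± 6.02 to 12.9 ± 4.85 CPM and Klrk1, the activating receptor NKG2D, from 142 ± 5.49 to 72.6 ± 10.7 CPM. The fall of Klrk1 was not called with the length and GC trends removed (log2 -0.0471; edgeR adjusted p = 0.762, against 7.77e-08 at the lowest over the alternatives). Klrb1c, which encodes NK1.1, and Fcer1g, a signalling adaptor, rose from 1.496 ± 0.381 to 10.9 ± 2.36 CPM and from 5.38 ± 0.585 to 22.5 ± 5.64 CPM. Of the Klrc1 transcript, 40.3% of 50-base stretches also occur in another gene, mainly Klrc2, which fell from 2.42 ± 0.459 to 0.483 ± 0.2803 CPM. In the costimulatory list the count that rose was 2 without d5 replicate 2. In the natural killer receptor list the count that rose was 2 without d5 replicate 2 or d9 replicate 1.

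In the T cell receptor complex and its signalling chain 8 of 20 tested genes rose (40%) and 4 fell (20%). Cd8a rose from 333 ± 38.8 to 589 ± 70.9 CPM and the scaffold gene Lat from 616 ± 44.6 to 992 ± 85.1 CPM. Ptprc, which encodes the phosphatase CD45, fell from 706 ± 54.2 to 292 ± 31.6 CPM, the adaptor gene Lcp2 from 1481 ± 234 to 974 ± 126 CPM and Themis from 24.66 ± 3.12 to 11.7 ± 2.28 CPM. The fall of Themis was not called with the length and GC trends removed (log2 -0.37; edgeR adjusted p = 0.205, against 3.21e-06 at the lowest over the alternatives). With library size scaling 3 rose. In the receptor signalling list the count that rose was 3 without d5 replicate 2, 4 without d5 replicate 1 and 5 without d9 replicate 2 or d9 replicate 3, and the count that fell was 2 without d5 replicate 2. Lcp2 was not called without d5 replicate 2 (edgeR adjusted p = 0.146).

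Transcription factors and receptors of memory and quiescent cells did not move together: of 19 tested genes 3 rose, 5 fell and 11 were not called. The shares that rose and fell, 15.8% and 26.3%, lay near the 15.9% and 21.2% of all genes. Tcf7, which encodes TCF1, the factor of naive and stem-like memory cells, stood at 25.2 and 53.1 CPM on d5 and 72.8, 141 and 124 CPM on d9 (log2 1.53 ± 0.39; edgeR adjusted p = 0.0117). All 3 d9 libraries lay above the d5 pair, and the rise was not called without the filter on low counts or with the length and GC trends removed. Eomes, a T-box factor of memory and exhausted cells, stood at 6.01 and 5.199 CPM on d5 and 24.72, 32.5 and 29.5 CPM on d9, a 5.15-fold rise, and Klf2, a factor of resting and recirculating cells, rose from 0.962 ± 0.122 to 4.05 ± 1.3 CPM. Bach2, a repressor that restrains effector differentiation, fell from 169 ± 41.4 to 55.3 ± 15.8 CPM, and Id3 from 119 ± 11.7 to 46.96 ± 2.94 CPM. Il7r, given above, belongs to the same list. Tcf7 was not called without d5 replicate 1 (edgeR adjusted p = 0.101).

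Among 23 regulators of effector and exhausted cells 8 rose (34.8%) and 5 fell (21.7%). Prdm1, which encodes BLIMP-1, a driver of terminal effector differentiation, stood at 5.79 and 6.08 CPM on d5 and 29.4, 38.5 and 31.98 CPM on d9, a 5.61-fold rise (edgeR adjusted p = 0.000339). Irf8 rose from 100.3 ± 17.6 to 449.8 ± 19.5 CPM, Batf, an AP-1 factor of activated T cells, from 37.9 ± 2.22 to 111 ± 5.28 CPM, Id2 from 177 ± 6.299 to 463 ± 130.0 CPM and Hic1 from 0.256 ± 0.0505 to 4.91 ± 1.19 CPM. Tox, the factor that maintains exhausted cells, stood at 14.2 and 16.5 CPM on d5 and 2.24, 2.54 and 3.35 CPM on d9, a 5.65-fold fall (edgeR adjusted p = 4.78e-05). Tbx21, which encodes T-bet, the factor of the type 1 programme, stood at 107 and 83.7 CPM on d5 and 26.5, 36.5 and 46.6 CPM on d9 and fell 2.61-fold. In the effector regulator list the count that fell was 3 without d5 replicate 2.

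Of 40 immediate early genes, which stimulation induces within minutes to hours, 4 rose and 6 fell, shares of 10% and 15% that lie below those of all genes. Egr2, a factor of tolerance and of late activation, fell from 309 ± 10.4 to 133 ± 26.8 CPM, Spry1 and Spred1, brakes on the Ras pathway, from 67.5 ± 13.8 to 11.4 ± 4.53 CPM and from 75.4 ± 6.06 to 34.01 ± 4.68 CPM. The phosphatase gene Dusp5 rose from 215 ± 57.2 to 546 ± 71.6 CPM and Btg2, an inhibitor of proliferation, from 169.7 ± 20.3 to 366 ± 75.02 CPM. Myc stood at 146 and 227 CPM on d5 and 161, 333 and 358 CPM on d9 and was not called (edgeR adjusted p = 0.207). It was called higher without d9 replicate 1, and also without the 2 d9 libraries rich in ribosomal protein counts (edgeR adjusted p = 0.00782 to 0.64 over the 18 alternatives). In the immediate early list the count that rose was 7 without d9 replicate 1.

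**Figure D4:**
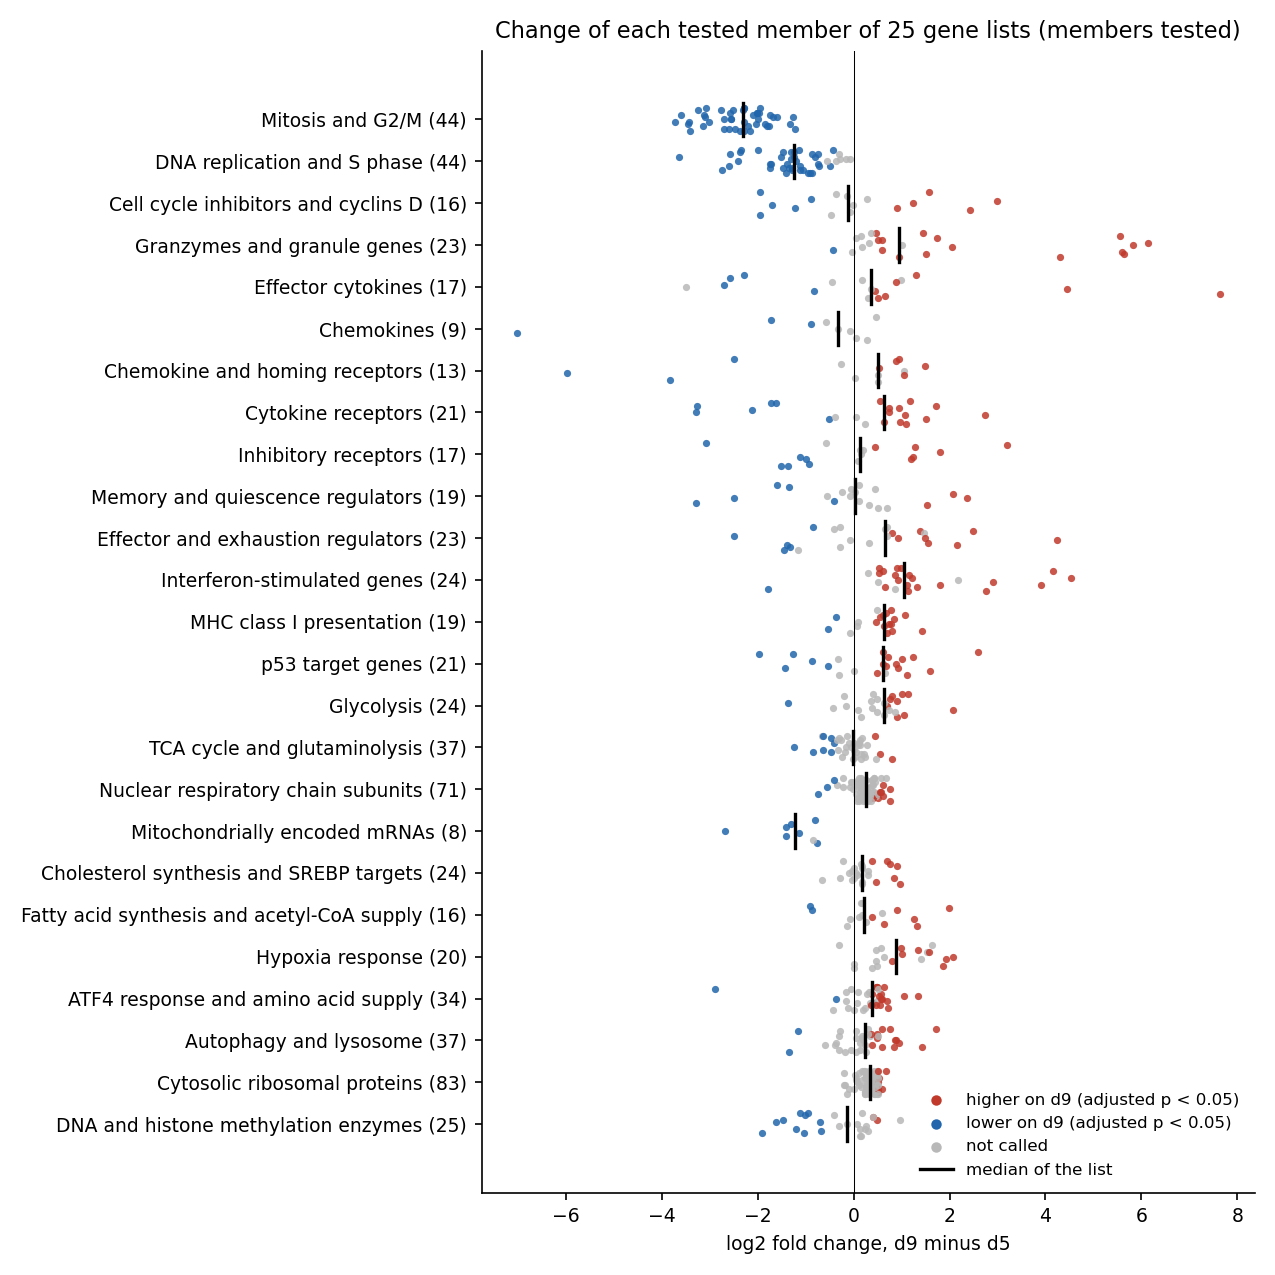
Log2 fold change from d5 to d9 of each tested member of 25 gene lists (1 row per list, members tested in brackets), red where higher, blue where lower and grey where not called, with the list median as a bar. All 44 mitosis genes lie below 0, most interferon-stimulated and granule genes lie above 0, and most members of the respiratory chain list lie close to 0.

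Interferon-stimulated genes rose in 19 of 24 tested, with 1 that fell (median log2 1.05), against 15.9% of all genes higher. Mx1, the gene of an antiviral GTPase, stood at 8.44 and 8.47 CPM on d5 and 66.5, 53.2 and 52.5 CPM on d9, a 6.78-fold rise (edgeR adjusted p = 6.03e-06). Isg15, a ubiquitin-like modifier, stood at 1.32 and 1.11 CPM on d5 and 21.7, 16.5 and 16.9 CPM on d9 and rose 15-fold. Zbp1, a sensor of nucleic acids, rose from 11.2 ± 0.133 to 39.01 ± 2.58 CPM, Irf1 from 22.04 ± 1.52 to 54.9 ± 4.26 CPM and Oas1a, with low counts and 57.6% of its 50-base stretches shared with Oas1g and other genes, from 0.287 ± 0.172 to 2.17 ± 0.3398 CPM. Ifit2 fell from 3.57 ± 1.07 to 1.03 ± 0.0822 CPM. The count that rose lay between 13 and 20 in the settings tried.

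Genes of MHC class I antigen presentation rose in 13 of 19 tested, with 2 that fell (median log2 0.62). The class I heavy chain gene H2-K1 stood at 1979 and 1868 CPM on d5 and 4372, 3879 and 3916 CPM on d9, a 2.11-fold rise, H2-D1 went from 1789.6 ± 102 to 2979 ± 52.4 CPM and the non-classical H2-Q7 from 314 ± 19.3 to 841 ± 29.3 CPM. Of the transcripts of H2-K1, H2-D1 and H2-Q7, 8.11, 14.3 and 27.1% of 50-base stretches also occur in another gene. With the length and GC trends removed the median of the list was 0.41. Nlrc5, the transactivator of class I genes, rose from 78.8 ± 2.14 to 126 ± 9.05 CPM, the peptide transporter gene Tap2 from 163 ± 2.39 to 248 ± 14.6 CPM and the immunoproteasome gene Psmb10 from 60.4 ± 9.31 to 108 ± 2.08 CPM. In the class I list the count that rose was 7 without d5 replicate 2, and the count that fell was 1 without any 1 of the 5 libraries.

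Among 21 survival and death genes 7 rose (33.3%) and 4 fell (19%). Bcl2l11, which encodes the death inducer BIM, stood at 83.1 and 100.4 CPM on d5 and 227, 319.9 and 299 CPM on d9, a 3.07-fold rise (edgeR adjusted p = 0.000524). Bbc3 and Bmf, death inducers of the same kind, rose from 47.01 ± 1.31 to 94.4 ± 2.62 CPM and from 3.35 ± 0.0552 to 8.67 ± 0.437 CPM, and so did Bcl2l1, which encodes the survival protein BCL-XL, from 242 ± 37.4 to 469 ± 24.5 CPM. Xiap, an inhibitor of caspases, fell from 46.5 ± 2.96 to 15.99 ± 1.39 CPM. Bcl2 stood at 61.6 and 69.5 CPM on d5 and 51.6, 49.1 and 46.3 CPM on d9, and its small fall (log2 -0.42 ± 0.12; edgeR adjusted p = 0.022) was not called in 7 of the 18 alternative settings. In the survival and death list the count that fell was 2 without d5 replicate 2, d9 replicate 2 or d9 replicate 3. Bcl2 was not called without d5 replicate 2, d9 replicate 2 or d9 replicate 3 (edgeR adjusted p = 0.0543 to 0.162).

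Of 21 targets of the tumour suppressor p53, 12 rose and 5 fell (median log2 0.62). Phlda3, an inhibitor of AKT signalling, stood at 6.12 and 6.43 CPM on d5 and 39.01, 40.4 and 33.9 CPM on d9, a 6.02-fold rise. Zmat3, which encodes an RNA-binding protein, rose from 40.3 ± 5.08 to 121 ± 25.99 CPM, and Cdkn1a and Bbc3, given above, belong to the same list. Plk2, a Polo-like kinase gene, fell from 126 ± 18.01 to 46.4 ± 2.77 CPM and Perp from 16.3 ± 0.0639 to 8.895 ± 0.909 CPM. In the p53 target list the count that fell was 3 without d5 replicate 2.

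Glycolytic genes rose in 9 of 24 tested and fell in 1 (median log2 0.64). The median was 0.39 without d9 replicate 1 and 0.37 with the length and GC trends removed. Aldoc, an aldolase, rose from 14.3 ± 9.57 to 60.7 ± 14.5 CPM, Gpi1, the glucose phosphate isomerase, from 801 ± 13.5 to 1653 ± 283 CPM, Aldoa from 1772 ± 141 to 3555 ± 330.0 CPM, Gapdh from 2408 ± 465 to 4089 ± 640.3 CPM and Bsg, the chaperone of lactate transporters, from 306 ± 57.8 to 576 ± 114 CPM. Ldhb, the lactate dehydrogenase subunit of oxidative tissues, fell from 4.89 ± 0.358 to 1.88 ± 0.242 CPM. Hk2, the inducible hexokinase, stood at 105 and 166 CPM on d5 and 237, 261 and 213 CPM on d9 (edgeR adjusted p = 0.0438), and its rise was not called in 11 of the 18 alternative settings. Slc2a1, the glucose transporter GLUT1, stood at 179 and 252 CPM on d5 and 455, 319 and 231 CPM on d9 (edgeR adjusted p = 0.208), and Ldha at 1209 and 1103 CPM on d5 and 1939, 1525 and 1423 CPM on d9 (edgeR adjusted p = 0.0924), and neither was called. Ldha was called higher without the filter on low counts and in a fit of the 5 libraries alone. Exons of Aldoa, Gapdh and Gpi1 overlap other genes on the opposite strand, and 27.8% of the 50-base stretches of Gapdh, mostly from pseudogenes, and 27% of those of Ldhb recur in other genes. In the glycolytic list the count that rose was 4 without d5 replicate 2. Gapdh and Bsg were not called without d5 replicate 2, nor Hk2 without d5 replicate 1, d9 replicate 1, d9 replicate 2 or d9 replicate 3 (edgeR adjusted p = 0.0601 to 0.308).

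In the list of 7 genes of the Txnip and MondoA glucose-sensing network 2 rose and none fell. Txnip, which glucose induces and whose product restrains glucose uptake, stood at 159.9 and 140.3 CPM on d5 and 348, 277 and 274 CPM on d9. Its rise (log2 1.00 ± 0.32; edgeR adjusted p = 0.0309) was not called in 9 of the 18 alternative settings, and 18.4% of its 50-base stretches recur in Gm15441. In the glucose-sensing list the count that rose was 0 without d5 replicate 1, d5 replicate 2 or d9 replicate 2. Txnip was not called without d5 replicate 1, d5 replicate 2, d9 replicate 1 or d9 replicate 2 (edgeR adjusted p = 0.0532 to 0.168).

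Acss2, which encodes the enzyme that makes acetyl-CoA from acetate in the cytosol and nucleus, stood at 4.63 and 5.37 CPM on d5 and 25.5, 17.6 and 16.58 CPM on d9, a 3.97-fold rise (log2 1.99 ± 0.21; edgeR adjusted p = 7e-05). On the other strand, Acss2os, Ggt7 and Gss overlap its exons. In its list of fatty acid synthesis and acetyl-CoA supply 6 of 16 genes rose and 2 fell, with the desaturase genes Scd2 and Scd1 going from 239 ± 15.2 to 599 ± 57.9 CPM and from 9.27 ± 0.227 to 17.4 ± 3.45 CPM. In the list of 24 genes of cholesterol synthesis 7 rose and none fell, among them Mvd (23.7 ± 2.04 to 46.4 ± 1.59 CPM), Fdps (11.1 ± 1.998 to 20.9 ± 2.57 CPM) and Hsd17b7 (12.4 ± 0.179 to 20.97 ± 0.741 CPM). In the cholesterol list the count that rose was 3 without d5 replicate 2 and 4 without d5 replicate 1 or d9 replicate 2. In the fatty acid synthesis list the count that fell was 0 without d5 replicate 1 and 1 without d9 replicate 1 or d9 replicate 3. Fdps was not called without d5 replicate 2 (edgeR adjusted p = 0.0847).

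Fatty acid oxidation showed 3 genes higher and 3 lower of 24, shares of 12.5% each that lie below those of all genes. Acsl6, a ligase that activates long fatty acids, fell from 6.57 ± 2.03 to 0.421 ± 0.0282 CPM and Acsl4 from 92.3 ± 2.04 to 43.99 ± 2.32 CPM. Cpt1a, the entry step into mitochondria, stood at 32.9 and 29.8 CPM on d5 and 24.4, 25.4 and 24.9 CPM on d9 and was not called (edgeR adjusted p = 0.105), but was called lower with the length and GC trends removed. Of 37 genes of the tricarboxylic acid cycle and glutamine use 3 rose and 7 fell, shares of 8.11% and 18.9%. Sucla2, a subunit of succinyl-CoA ligase, fell from 22.3 ± 1.06 to 12.4 ± 1.38 CPM, while Suclg2 and Got1 rose from 19.1 ± 2.22 to 33.3 ± 2.35 CPM and from 218 ± 1.36 to 321 ± 12.6 CPM. Of 18 genes of the pentose phosphate and one-carbon pathways 4 rose and 4 fell, with Phgdh, the first step of serine synthesis, at 828 ± 93.96 and 1239.6 ± 53.4 CPM and Tyms, which makes thymidylate for DNA, at 71.7 ± 2.42 and 28.96 ± 6.34 CPM on d5 and d9. Of the 50-base stretches of Phgdh, 63.1% recur in other genes (50.6% in Gm7901), so its value is uncertain, and its rise was not called with the length and GC trends removed. In the oxidation list the count that rose was 0 without d5 replicate 1 and 1 without d5 replicate 2. In the tricarboxylic acid list the count that fell was 3 without d5 replicate 2 or d9 replicate 2 and 4 without d9 replicate 3. In the pentose and one-carbon list the count that rose was 0 without d5 replicate 2 and 2 without d5 replicate 1 or d9 replicate 3, and the count that fell was 2 without d5 replicate 2 or d9 replicate 2. Phgdh was not called without d5 replicate 2 (edgeR adjusted p = 0.111).

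The mRNAs encoded by mitochondrial DNA fell in 7 of 8 tested genes (median log2 -1.22). The other 5 of the 13 listed, mt-Atp6, mt-Atp8, mt-Co2, mt-Co3 and mt-Nd4l, held at most 6 counts in any of the compared libraries and were not tested. The values below therefore cover only part of the mitochondrial mRNAs. Why the counts of the others are so low was not tested. mt-Cytb, the complex III subunit, stood at 818 and 649.5 CPM on d5 and 324, 257 and 247 CPM on d9, mt-Nd1 at 729 and 609 CPM on d5 and 268, 262 and 221 CPM on d9 and mt-Co1 at 4195 and 4148 CPM on d5 and 2978, 2242 and 1930.0 CPM on d9. No d9 library reached the level of a d5 library in these 3 genes. Other genes hold 51.1% of the 50-base stretches of mt-Co1. With the length and GC trends removed 1 of the 8 fell, mt-Nd1 and mt-Co1 were not called, and the median was -0.30. The share of all counts on mitochondrial genes was 0.797 and 0.781% on d5 and 0.483, 0.413 and 0.347% on d9. Reads of ribosomal RNA type were also fewer on d9, and their part in the result was not tested.

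Nuclear genes for respiratory chain subunits were mostly not called: 11 of 71 rose and 3 fell (median log2 0.25). These are shares of 15.5% and 4.23%, against 15.9% and 21.2% of all genes. Atp5d and Ndufv3, subunits of the ATP synthase and of complex I, rose from 254 ± 18.4 to 431 ± 17.3 CPM and from 64.7 ± 9.02 to 109.8 ± 2.08 CPM, and Ndufa4 fell from 103 ± 6.45 to 61.9 ± 8.53 CPM. With the length and GC trends removed 32 rose and Ndufa4 was not called (log2 -0.114; edgeR adjusted p = 0.476, against 0.000275 at the lowest over the alternatives). The median was 0.15 with library size scaling. In the respiratory chain list the count that rose was 2 without d5 replicate 2, 3 without d5 replicate 1 and 5 without d9 replicate 1 or d9 replicate 3, and the count that fell was 0 without d5 replicate 1 and 1 without d9 replicate 2 or d9 replicate 3. Cytosolic ribosomal protein genes rose in 8 of 83 (9.64%, a share below the 15.9% of all genes) and fell in none (median log2 0.34). Rps13 stood at 853 ± 30.6 and 1276 ± 106 CPM and Fau at 1055 ± 124 and 1672 ± 277 CPM on d5 and d9. Other genes, mainly Gm9843, hold 50.8% of the 50-base stretches of Fau. Without the filter on low counts 38 rose. In the ribosomal protein list the count that rose was 0 without d5 replicate 1 or d5 replicate 2, 1 without d9 replicate 3 and 2 without d9 replicate 1. d9 replicate 1 held the highest share of counts on these genes. Ndufa4 and Rps13 were not called without d5 replicate 1 or d5 replicate 2, nor Fau without d5 replicate 1, d5 replicate 2, d9 replicate 1 or d9 replicate 3 (edgeR adjusted p = 0.0504 to 0.191).

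Of 20 hypoxia response genes 8 rose and none fell (median log2 0.89). Ndrg1, a stress-responsive gene, stood at 275 and 318 CPM on d5 and 924, 887 and 823 CPM on d9, a 2.96-fold rise, and Plin2, which coats lipid droplets, rose from 9.69 ± 2.22 to 35.4 ± 5.498 CPM. Bhlhe40, a transcription factor gene, rose from 763 ± 116 to 1319.8 ± 150.1 CPM and Ddit4, an inhibitor of mTORC1, from 184 ± 12.1 to 464 ± 127 CPM. The rise of Bhlhe40 was not called with the length and GC trends removed. In the hypoxia list the count that rose was 3 without d5 replicate 1 and 4 without d5 replicate 2. Bhlhe40 and Ddit4 were not called without d5 replicate 1 (edgeR adjusted p = 0.0521 to 0.144).

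The ATF4 list, genes that amino acid shortage induces, held 17 that rose and 2 that fell of 34 (median log2 0.39). The amino acid transporter gene Slc3a2 rose from 768 ± 79.4 to 1242 ± 61.3 CPM, Wars, a tRNA synthetase gene, from 293 ± 21.7 to 454 ± 13.3 CPM and Chac1, which degrades glutathione, from 95.7 ± 5.2 to 142 ± 8.803 CPM. Cth, which makes cysteine, stood at 85.6 and 76.5 CPM on d5 and 12.5, 10.1 and 10.4 CPM on d9, a 7.37-fold fall. With the length and GC trends removed 7 rose and 7 fell, with a median of 0.18. In the ATF4 list the count that rose was 5 without d5 replicate 2, 9 without d5 replicate 1 and 11 without d9 replicate 3, and the count that fell was 1 without d5 replicate 1, d5 replicate 2, d9 replicate 2 or d9 replicate 3.

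In both lists of chaperone and protein folding genes the shares called lay below the 15.9% higher and 21.2% lower of all genes. They were 13% and 17.4% in the unfolded protein response and 6.25% and 18.8% in the heat shock list. In the unfolded protein response 3 of 23 rose and 4 fell: Ern1 and Eif2ak3, sensors of the endoplasmic reticulum, rose from 36.9 ± 4.099 to 82.8 ± 14.9 CPM and from 44.1 ± 0.779 to 93.8 ± 5.37 CPM, while the chaperone genes Hsp90b1 and Dnajc3 fell from 646 ± 11.5 to 314 ± 20.1 CPM and from 115 ± 12.5 to 62.6 ± 5.95 CPM. In the heat shock list 1 of 16 rose and 3 fell, with Hspa8 going from 1284 ± 32.9 to 2348 ± 419.7 CPM and Hsp90aa1 from 185 ± 24.1 to 68.3 ± 6.91 CPM. Of the 50-base stretches of Hspa8 and Hsp90aa1, 52.7 and 58.5% recur in other genes, so both values are uncertain. In the heat shock list the count that rose was 2 without d9 replicate 1. In the unfolded protein list 4 rose and 8 fell with the length and GC trends removed. Without the 2 d9 libraries rich in ribosomal protein counts 7 of that list rose and 5 fell.

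In the antioxidant and iron list 6 of 22 rose (27.3%) and 3 fell (13.6%). Tfrc, the transferrin receptor with which dividing cells take up iron, stood at 400.0 and 486 CPM on d5 and 84.2, 94.4 and 90.3 CPM on d9, a 4.94-fold fall. Hmox1, the haem oxygenase gene, rose from 74.1 ± 1.31 to 184 ± 7.13 CPM and Mt2, a metallothionein, from 252 ± 61.99 to 816 ± 79.7 CPM, although 45.5% of the 50-base stretches of Mt2 recur in Gm45774. Autophagy and lysosome genes rose in 13 of 37 (35.1%) and fell in 2 (5.41%). Sqstm1, which encodes the cargo receptor p62, stood at 1397 and 1309 CPM on d5 and 3641, 3570.0 and 3612 CPM on d9, a 2.67-fold rise, and Ctsd, the lysosomal protease cathepsin D, rose from 245 ± 80.5 to 802 ± 73.1 CPM and Gabarap from 147 ± 2.82 to 285 ± 45.7 CPM. Ctsz fell from 137 ± 5.52 to 54.3 ± 3.14 CPM. Gm49369 holds 36.6% of the 50-base stretches of Ctsd. In the antioxidant list the count that fell was 1 without d5 replicate 2, d9 replicate 2 or d9 replicate 3. In the autophagy list the count that rose was 6 without d5 replicate 1 and 8 without d5 replicate 2.

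Enzymes that write and remove methyl marks on DNA and histones fell in 10 of 25 tested genes (40%) and rose in 2 (8%). Ezh2 and Suz12, subunits of Polycomb complex 2, fell from 104 ± 3.41 to 27.7 ± 3.89 CPM and from 91.2 ± 7.94 to 29.5 ± 0.448 CPM, Dnmt1, the maintenance DNA methyltransferase, from 316 ± 31.6 to 146 ± 40.6 CPM, Uhrf1, its recruiter at replication forks, from 177 ± 7.32 to 63.3 ± 13.9 CPM and Suv39h1 from 121 ± 14.5 to 60.2 ± 11.4 CPM. Uhrf1 is also a member of the S-phase list. Without the 2 d9 libraries rich in ribosomal protein counts, 10 genes of the methylation list rose and 10 fell. The list median was then 0.0448, against -0.137 with all libraries. Of 31 acetyltransferases, deacetylases and sirtuins 4 rose and 3 fell, shares of 12.9% and 9.68% against 15.9% and 21.2% of all genes. Sirt1 went from 20.3 ± 1.35 to 8.18 ± 0.919 CPM and Kat2b from 14.4 ± 2.27 to 6.73 ± 1.07 CPM. In ribosome biogenesis 6 of 39 genes rose (15.4%) and 4 fell (10.3%), with neither share above that of all genes. Npm1 fell from 606 ± 11.3 to 333 ± 80.4 CPM, and 40.9% of its 50-base stretches recur in other genes. In the methylation list the count that rose was 0 without d5 replicate 1 and 1 without d5 replicate 2, d9 replicate 2 or d9 replicate 3. In the acetylation list the count that rose was 1 without d5 replicate 1 or d5 replicate 2. In the ribosome biogenesis list the count that rose was 2 without d5 replicate 1 and 10 without d9 replicate 1.

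The 12 protein-coding genes with the highest changes, at a mean log2 CPM of at least 3, included the granzyme genes Gzma, Gzmd, Gzme, Gzmf and Gzmg given above. The highest was Acvrl1, which encodes ALK1, a type I receptor of the TGF-beta family (ENSMUSG00000000530, chromosome 15). It stood at 1.54 and 0.701 CPM on d5 and 108, 79.6 and 80.5 CPM on d9, a 78.7-fold rise (log2 6.30 ± 0.38; edgeR adjusted p = 2.91e-06). Ppp2r2c, a regulatory subunit of protein phosphatase 2A, stood at 1.05 and 1.34 CPM on d5 and 44.9, 37.8 and 45.6 CPM on d9, and Adgrg1, the adhesion receptor GPR56 of cytotoxic lymphocytes, at 4.41 and 3.56 CPM on d5 and 46.3, 85.7 and 113 CPM on d9. Dapk2, a death-associated kinase, rose from 2.4 ± 0.585 to 29.1 ± 3.69 CPM and Cables1, a regulator of cyclin-dependent kinases, from 12.5 ± 5.56 to 117 ± 14.2 CPM. Ly6c2, a surface antigen of effector and memory CD8 cells, rose from 46.4 ± 10.9 to 434 ± 131 CPM. Exons of Cables1 overlap Gm6277 on the opposite strand (37.8% of its 50-base stretches), and 13.2% of those of Ly6c2 recur in another gene.

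Of the 12 lowest, 9 are genes of chromosome segregation or mitosis, including Aspm (37.7 ± 4.73 to 3.205 ± 1.38 CPM), Kif15 (50.8 ± 3.898 to 5.49 ± 1.46 CPM) and the condensin genes Smc2 (64.3 ± 2.32 to 6.78 ± 0.497 CPM) and Ncapg2 (49.5 ± 1.803 to 5.46 ± 0.784 CPM). The other 3 are Cxcr3, Pou2af1 and Lars2. Pou2af1, a coactivator of octamer-binding factors known from B cells, stood at 82.9 and 79.4 CPM on d5 and 4.75, 8.09 and 9.01 CPM on d9. Lars2, the mitochondrial leucyl-tRNA synthetase gene, stood at 1835 and 5591 CPM on d5 and 95.8, 201 and 222 CPM on d9. Lars2 took 0.195 and 0.577% of counts on d5 and 0.00929, 0.0199 and 0.0216% on d9, and its fall was not called without the 2 d9 libraries rich in ribosomal protein counts (edgeR adjusted p = 0.0648, and 1.01e-05 at the lowest over the 17 alternatives that tested it). Gm42418 was also lower in every d9 library than in every d5 library. It took 1.86 and 3.83% of counts in d5 replicates 1 and 2 and 0.304, 0.283 and 0.281% in d9 replicates 1 to 3. Both genes were thus higher in d5 replicate 2 than in d5 replicate 1, and Gm42418 differed little between the d9 libraries. The part of ribosomal RNA-like reads in the Lars2 value was not tested.

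The same interval in the libraries that received acetate for the last day gave 5477 calls of 13182 genes (41.5%). Of the 4895 genes called without acetate, 3681 were called in the same direction with it (75.2% of these and 67.2% of the acetate calls), 11 in the opposite direction and 1203 not. The 2 comparisons use different libraries but share the estimate of spread and the d5 and d9 labels. Mki67 went from 127 ± 45.2 to 15.4 ± 2.72 CPM with acetate, Gzmb from 3551 ± 412 to 10614 ± 1230.5 CPM, Gzma from 189 ± 102 to 2432 ± 349 CPM, Cxcr3 from 9.53 ± 2.69 to 2.37 ± 0.427 CPM and Acvrl1 from 1.34 ± 0.784 to 83.8 ± 12.8 CPM. Il10 went from 7.71 ± 0.843 to 95.1 ± 19.02 CPM with acetate (log2 3.62) against 1.16 ± 0.00691 to 25.4 ± 4.96 CPM without it (log2 4.44). In the mitosis list 44 of 44 genes fell with acetate, in the granule list 14 of 23 rose and in the interferon list 22 of 24 rose. Other lists were less alike in the 2 media by their counts. The shares of all genes that rose and that fell with acetate were not counted apart. Calls in either direction made up 41.5% of genes with acetate and 37.1% without it. Of 40 immediate early genes 21 rose and 2 fell with acetate, against 4 and 6 without it. Of 19 memory and quiescence genes 9 rose and 3 fell with acetate, against 3 and 5 without it. The median log2 change of the chemokine list was 0.38 with acetate and -0.32 without it. The difference between the 2 changes, tested as an interaction in the edgeR quasi-likelihood fit, passed for 0 genes (smallest adjusted p = 0.0648), with 1015 genes at an unadjusted p under 0.05, 102 calls by DESeq2 and 0 by limma-voom. With the 2 d9 libraries rich in ribosomal protein counts left out, 164 genes passed.

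**Figure D5:**
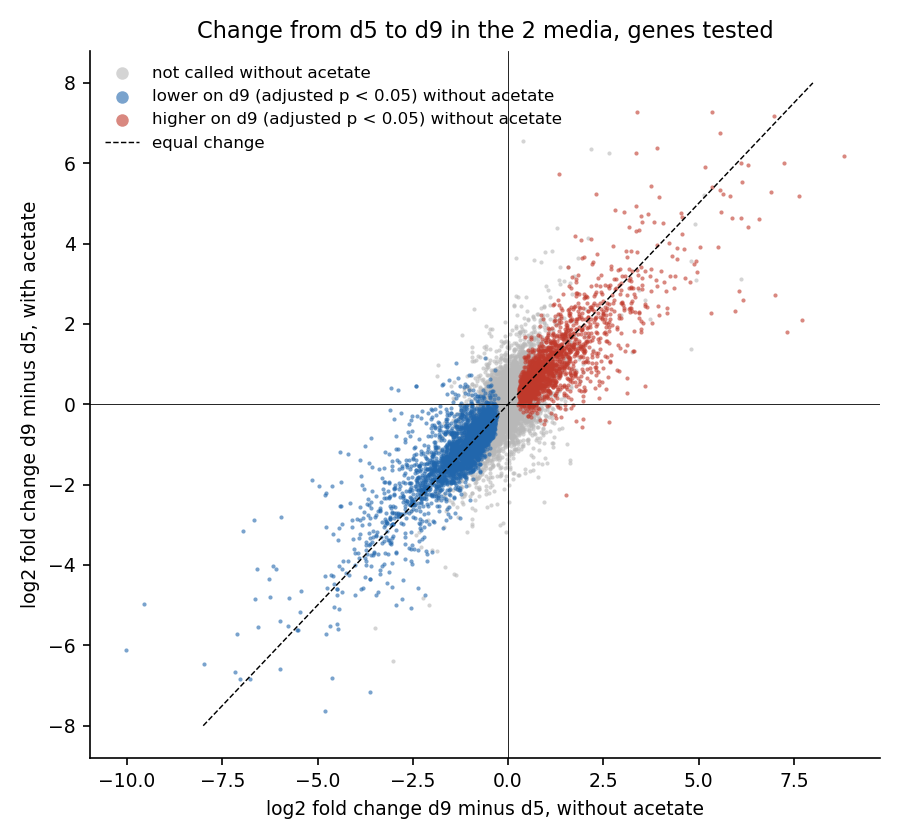
Log2 fold change from d5 to d9 with acetate (vertical) against that without acetate (horizontal), 1 point per gene tested, coloured by its call without acetate, with a dashed line of equal change. Most coloured points lie in the quadrants of equal sign, and 4769 of the 4895 called genes had the same sign in both media.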

How the data were processed

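Reads per gene were deposited by the authors as raw counts, 1 table per library, for 53465 Ensembl genes. The submitters' processing notes name STAR, featureCounts, DESeq2 and deepTools with GRCm38, without versions or roles. The sources used here give neither the strand setting nor the annotation release. Libraries were stranded mRNA preparations, per the labels' protocols.

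Counts of all 10 libraries were filtered with edgeR's filterByExpr (edgeR 4.0.16, R 4.3.3), which left 13182 genes, scaled by TMM and fitted with 1 mean per group and a quasi-likelihood test (6 residual degrees of freedom, biological coefficient of variation 0.161), with Benjamini-Hochberg adjustment over all genes. All groups entered 1 fit because d5 has only 2 libraries. Totals were 16588023 to 23930347 counts in the 5 libraries compared. On counts simulated from these libraries, the test recovered 16, 56, 80 and 88% of 50 genes each changed 1.5-, 2-, 3- and 4-fold, and called 12 of 12982 unchanged genes.

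Genes were named by rule: the 12 highest and 12 lowest protein-coding genes at a mean log2 CPM of at least 3, up to 6 called members of each of 48 lists in order of p, and a fixed set named whatever its result. Some genes that the rule picks are not reported here. The members and lists were chosen with earlier results of these data known. Gzmc, Top2a, Ccnb2 and the genes of the closing observations were chosen after their values were seen. Genes outside the rule that give cell type checks or share reads with a named gene are named with it. Alternatives covered scaling, filter, test (DESeq2 1.42.0, limma 3.58.1), libraries left out, thinning, a replicate block, ribosomal RNA-like genes, and length and GC trends. The last 2, and leaving out the 2 d9 libraries rich in ribosomal protein counts, were added after the data were seen. Shares of 50-base stretches were computed over the GENCODE transcripts of the reference, and promoter windows are RefSeq's for GRCm38.p6. 105 gene IDs had no annotation.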

Additional observations from a re-analysis of the deposited data

How the results depend on the processing

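With 1 of the 5 libraries left out, the number of called genes ranged from 2829 to 4770. In these refits without 1 d5 library, the single d5 library left is taken to vary as the other groups do. Library size scaling alone lowered the share of higher genes to 32.3%. The difference between the changes without and with acetate, called for 0 genes, was called for 99 without the filter on low counts, 102 with DESeq2, 164 without the 2 d9 libraries rich in ribosomal protein counts, 21 with the length and GC trends removed, and 0 to 1 with 1 library left out. The cause of these shifts was not tested. Havcr2, not called, had a log2 change of -0.0111 with library size scaling and of -0.0339 to 0.227 with 1 library left out, and Tnf, not called, one of -0.0409 with the length and GC trends removed. Of 219 called genes named in the text, 192 kept the call in each of the 17 or 18 alternatives that tested them, and 5 of 9 genes named as not called passed the threshold in at least 1.

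Deviations of same-numbered d5 and d9 libraries correlated at 0.163 and 0.113 across genes. Those of d5 replicate 2 and d9 replicate 3, of unlike number, correlated at 0.112. With 2 d5 libraries the deviations of 1 mirror those of the other, so these values cannot show a pairing. The samples share only a number. With the replicate block, 4248 genes were called. With these depths and library numbers, and 200 of 13182 genes changed, 16% of simulated 1.5-fold changes and 56% of 2-fold changes were recovered. The Benjamini-Hochberg adjustment is stricter where few genes change, and 4895 genes were called in the data. The share of such changes missed in the data was therefore not measured. How much of the loss in the simulation is due to depth was not simulated. Thinned to equal depth, the libraries gave 4751 calls.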

Other observations

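The genes in these paragraphs lie outside the lists or were not picked by the rule for named genes, and were chosen after their values were seen. Mmp10, a secreted metalloproteinase gene, stood at 96.8 and 112 CPM on d5 and 1.16, 1.06 and 1.09 CPM on d9, and Mmp13, another metalloproteinase gene, fell from 84.2 ± 9.14 to 11.5 ± 0.985 CPM. Cd200, whose product dampens myeloid cells through a receptor on them, stood at 34.6 and 44.7 CPM on d5 and 1.66, 1.95 and 2.61 CPM on d9. Nrp1, a semaphorin and VEGF coreceptor gene, fell from 98.7 ± 6.04 to 22.5 ± 1.795 CPM, and Vcl, which links integrins to actin, from 111 ± 16.5 to 14.96 ± 3.23 CPM. Of the 50-base stretches of Vcl, 39.2% recur in Ap3m1. Kit, the receptor for stem cell factor, is better known from mast cells and progenitors and stood at 9.05 and 8.996 CPM on d5 and 53.3, 101 and 92.1 CPM on d9. Of the granulocyte and mast cell markers, Fcer1a and Ms4a2 were at 0 and Cpa3 held at most 2 counts, while Mcpt8 lay higher in every d9 library without being called (log2 1.22). Spp1, which encodes the secreted matrix protein osteopontin, stood at 81.8 and 48.2 CPM on d5 and 538, 317 and 303 CPM on d9. Ly6a, which encodes the interferon-responsive surface antigen SCA-1, rose from 143 ± 20.1 to 449 ± 93.3 CPM.

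The interferon-inducible membrane genes Ifitm1, Ifitm2 and Ifitm3, neighbours on chromosome 7, rose from 139 ± 38.5 to 522 ± 127 CPM, from 50.5 ± 6.22 to 153 ± 13.5 CPM and from 92.5 ± 6.53 to 299.7 ± 26.4 CPM. Of the 50-base stretches of Ifitm2, 48.5% recur in other genes. Serpina3g, a protease inhibitor of activated T cells, rose from 67.3 ± 27.98 to 403 ± 15.7 CPM. Dgat2, which completes triglycerides, rose from 3.802 ± 0.00679 to 16.8 ± 2.3 CPM, Mgll, a lipase, from 4.73 ± 0.491 to 28.9 ± 1.77 CPM and the lipid-responsive factor Pparg from 8.105 ± 0.475 to 25.8 ± 2.85 CPM. Hilpda, an inhibitor of triglyceride lipase, went from 40.99 ± 10.8 to 166 ± 91.2 CPM, a rise not called in 4 of the 18 alternative settings. Tsc22d3, a glucocorticoid- and FOXO-responsive gene, stood at 12.9 and 7.94 CPM on d5 and 57.4, 44.7 and 38.4 CPM on d9, Smox, a spermine oxidase gene, at 33.6 and 30.6 CPM on d5 and 201, 176 and 181 CPM on d9 and Car2, a carbonic anhydrase gene, at 22.5 and 26.6 CPM on d5 and 141, 168 and 192 CPM on d9. The condensin genes Ncapd2, Smc4, Ncapg and Ncaph, which fold mitotic chromosomes, fell from 329 ± 57.2 to 83.6 ± 27.9 CPM, from 97.3 ± 7.02 to 18.6 ± 2.51 CPM, from 61.2 ± 5.805 to 7.71 ± 1.63 CPM and from 102 ± 20.9 to 20.9 ± 7.97 CPM. Hilpda was not called without d5 replicate 1 or d5 replicate 2 (edgeR adjusted p = 0.0615 to 0.119).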
